A study of Mus musculus with 12 samples.

Results

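The 6 genes described here stand at the core of PI3 kinase and Akt signalling, and their RNA was measured in cultured mouse aortic endothelial cells labelled as lacking the transcription factors Ets1, Ets2 or both. The genes were Pik3ca, Pik3r1, Pdpk1, Akt1, Akt2 and Mtor. They were taken by symbol, and all 6 were among the 11015 genes of the table. They were measured by 17 of its 20523 probe sets: 5 for Pik3ca, 3 each for Pik3r1 and Akt2, and 2 each for Pdpk1, Akt1 and Mtor.

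PI3 kinase is a lipid kinase that growth factor receptors recruit to the plasma membrane. Pik3ca encodes its p110-alpha catalytic subunit and Pik3r1 the p85-alpha regulatory subunit, which holds the catalytic subunit and docks it to phosphorylated receptors. The lipid it makes brings Akt to the membrane, where the kinase encoded by Pdpk1 phosphorylates it. Akt1 and Akt2 are closely related kinases, Akt1 best known in endothelium for survival, migration and the control of nitric oxide synthase, and Akt2 best known for insulin-driven glucose uptake. Mtor encodes the kinase of both mTOR complexes, which act downstream of Akt on translation and upstream of it on full Akt activity. The arrays measured RNA only, so neither protein nor kinase activity is described.

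All cells were aortic endothelial cells of mice aged 4 weeks and had been infected with a lentivirus. Wild-type cells (3 arrays) were Ets1+/+; Ets2+/+ and received lentiviral-egfp. Ets1 null cells (3 arrays) were Ets1-/-; Ets2fl/fl with lentiviral-egfp, so their Ets2 alleles were floxed but not exposed to Cre. Ets2 null cells (3 arrays) were Ets1+/+; Ets2fl/fl with lentiviral-egfp-Cre. The cells labelled Ets1/2 null were Ets1-/-; Ets2fl/fl with lentiviral-egfp-Cre, and 2 of their 3 columns were used: the column of replicate 3 equalled the mean of the other columns in 20521 probe sets (tolerance 1e-06). Cre was given only to the cells labelled as lacking Ets2, so Cre and Ets2 loss cannot be told apart. The groups follow the titles and genotypes, which agree; the free-text descriptions of the Ets1 null and Ets2 null arrays instead call the gene in question wild type. The titles call the arrays biological replicates without saying whether each came from its own animal, so p-values measure the spread between arrays, and the number of arrays limits the precision.

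ETS factors bind DNA around a GGAA core, so the promoters of the 6 genes are shown before their RNA levels. RefSeq (build GRCm38.p6) gave 12 windows for the 6 genes, each from 250 bases before a transcription start to 50 bases after it. The letters CGGAAG, searched on both strands, were found in 3 of the 12 windows and in 16.9% of 32851 promoter windows of the same length. The longer string CCGGAAGT, which contains the former, was found in 2 of the 12 and in 3.89% of all windows. The bare core GGAA was in 11 of the 12 and in 96.0% of all windows, so its presence separates few promoters. The windows below are the 3 with a CGGAAG match and, for contrast, both of Akt1 and the most upstream of Akt2, which have none. They run 5′ to 3′ on the gene's strand, and capitals mark CGGAAG or its reverse complement.
Pik3ca chr3:32396815-32397114 (+ strand): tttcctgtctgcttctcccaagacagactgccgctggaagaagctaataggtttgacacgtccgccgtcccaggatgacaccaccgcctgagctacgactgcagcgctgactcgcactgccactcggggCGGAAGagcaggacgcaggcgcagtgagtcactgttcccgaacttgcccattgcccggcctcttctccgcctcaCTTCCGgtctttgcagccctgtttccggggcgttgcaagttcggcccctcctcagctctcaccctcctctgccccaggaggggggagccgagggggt
Mtor chr4:148448332-148448631 (+ strand): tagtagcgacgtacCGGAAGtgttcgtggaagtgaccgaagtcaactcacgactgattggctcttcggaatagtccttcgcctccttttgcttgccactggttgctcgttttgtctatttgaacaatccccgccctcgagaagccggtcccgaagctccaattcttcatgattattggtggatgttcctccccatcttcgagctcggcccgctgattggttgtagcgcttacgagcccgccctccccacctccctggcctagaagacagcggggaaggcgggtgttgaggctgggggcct
Pdpk1 chr17:24141545-24141844 (- strand): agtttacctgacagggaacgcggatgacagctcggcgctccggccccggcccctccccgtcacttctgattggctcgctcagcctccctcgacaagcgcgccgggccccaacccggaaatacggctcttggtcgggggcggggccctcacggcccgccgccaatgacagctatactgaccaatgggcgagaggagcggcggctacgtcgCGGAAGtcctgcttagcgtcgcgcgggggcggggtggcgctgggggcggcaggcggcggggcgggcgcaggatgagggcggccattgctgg
Akt1 chr12:112674227-112674526 (- strand): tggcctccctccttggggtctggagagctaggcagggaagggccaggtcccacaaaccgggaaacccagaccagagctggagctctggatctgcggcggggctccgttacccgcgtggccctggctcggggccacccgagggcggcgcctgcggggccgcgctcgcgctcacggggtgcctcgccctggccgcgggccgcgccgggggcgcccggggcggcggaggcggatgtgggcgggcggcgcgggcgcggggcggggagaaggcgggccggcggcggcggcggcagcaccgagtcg
Akt1 chr12:112674835-112675134 (- strand): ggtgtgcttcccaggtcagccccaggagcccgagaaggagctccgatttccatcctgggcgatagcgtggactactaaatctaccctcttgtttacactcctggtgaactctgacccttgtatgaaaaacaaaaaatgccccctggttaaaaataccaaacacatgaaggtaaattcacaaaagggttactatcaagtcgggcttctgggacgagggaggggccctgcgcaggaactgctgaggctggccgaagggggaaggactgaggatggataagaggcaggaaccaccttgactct
Akt2 chr7:27591302-27591601 (+ strand): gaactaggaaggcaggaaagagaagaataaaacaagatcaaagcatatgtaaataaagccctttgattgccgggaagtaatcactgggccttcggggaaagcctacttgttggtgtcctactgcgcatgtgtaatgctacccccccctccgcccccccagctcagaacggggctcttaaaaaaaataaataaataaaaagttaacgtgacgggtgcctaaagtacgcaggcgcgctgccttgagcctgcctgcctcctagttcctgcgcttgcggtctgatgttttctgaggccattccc

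The Pik3ca window held 2 matches, the first letters of which lay 121 and 47 bases before the start. The Mtor window held 1 match 236 bases before the start, and Pdpk1 had 1 match 41 bases before the start in the printed window and none in its other. No match was found in either Akt1 window, in any of the 4 Akt2 windows or in either Pik3r1 window. These are matches of letters and show no binding.

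The targeted genes were examined first. The brightest Ets1 probe set (1452163_at) gave 10.26, 9.84 and 10.06 in wild-type arrays and 8.31, 8.76 and 9.17 in those of Ets1 null on the deposited log2 scale, a difference of -1.31 ± 0.23 (limma SE) with an adjusted p of 0.197. It gave 10.02 and 10.29 in the arrays labelled Ets1/2 null, a difference from wild type of 0.10 ± 0.25 with an adjusted p of 0.761. Centred, the difference was 0.90 ± 0.26 (adjusted p = 0.0235), so this probe set went against the label of those arrays. The 4 Ets1 probe sets disagreed there. Probe set 1426725_s_at differed from wild type by -0.02 ± 0.25 (centred 0.78, adjusted p = 0.0394) and 1422028_a_at by -0.61 ± 0.30 (centred 0.18). Probe set 1422027_a_at, in contrast, was lower, at 6.49 and 7.05 against 8.69, 8.78 and 8.83 in the wild-type arrays. The difference was -1.999 ± 0.27 (adjusted p = 0.000288), and -1.20 ± 0.26 centred (adjusted p = 0.00750). But it did not set the single nulls apart, at -0.50 ± 0.24 in Ets1 null (adjusted p = 0.556) and -0.54 ± 0.24 in Ets2 null (adjusted p = 0.239). Against Ets1 null, the arrays labelled Ets1/2 null were higher by 1.41 ± 0.25 for 1452163_at (adjusted p = 0.00161) and 1.20 ± 0.25 for 1426725_s_at (adjusted p = 0.00369). They differed by 0.09 ± 0.30 for 1422028_a_at and by -1.50 ± 0.27 for 1422027_a_at. The brightest Ets2 probe set (1416268_at) differed from wild type by -0.44 ± 0.38 in Ets2 null and by 0.18 ± 0.42 in the arrays labelled Ets1/2 null, with adjusted p of 0.540 and 0.745, and the latter was 0.98 ± 0.41 centred (adjusted p = 0.0935). Where these probe sets lie relative to the deleted sequence is not given in the sources used here. Of the 17 endothelial markers listed, 5 were on the table (Kdr, Flt1, Eng, Cd34 and Egfl7). The others, among them Pecam1 and Cdh5, were not on it. The mean log2 value of the 5 ran from 8.13 to 9.44 in wild-type arrays, 7.66 to 7.88 for Ets1 null, 8.55 to 9.18 for Ets2 null and 7.12 to 7.50 in those labelled Ets1/2 null. The 4 epithelial and mesothelial markers on the table averaged 7.28 to 9.78 in wild-type arrays, 9.84 to 10.25 for Ets1 null, 7.96 to 8.34 for Ets2 null and 8.84 to 8.89 in those labelled Ets1/2 null. The mean of 8 smooth muscle markers ran from 8.43 to 9.56 in wild-type arrays, 8.31 to 9.71 for Ets1 null and 8.66 to 9.38 for Ets2 null. It was 9.49 and 7.72 in the arrays labelled Ets1/2 null, the latter below every other array (1.19 and -0.57 centred). The mean of 9 fibroblast markers ran from 9.72 to 10.07 in wild-type arrays, 8.87 to 9.65 for Ets1 null, 9.35 to 10.63 for Ets2 null and 8.95 to 10.10 in those labelled Ets1/2 null, and that of 4 leukocyte markers was 6.90 to 7.18, 6.79 to 7.06, 6.63 to 6.88 and 6.46 to 6.69. After centring on the array median the endothelial means of the arrays labelled Ets1/2 null (-1.17 and -0.80) overlapped wild type (-0.98 to 0.40), and their leukocyte means (-1.84 and -1.61) lay above wild type (-2.15 to -1.94) rather than below it. The part of other cells in the results was not tested, and in such bulk RNA fewer cells of a type and less RNA per cell cannot be told apart. By the Y-linked Eif2s3y, 4 arrays were male, namely the 3 of Ets2 null and 1 of wild type, and 7 were female. Wild type was the only group with both sexes, so any term for sex rests on its 1 male array.

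The arrays labelled Ets1/2 null also had lower values over most probe sets. Their medians were 8.30 and 8.29, against 9.05 to 9.15 in the other 9 arrays. The median difference from wild type over all probe sets was -0.63 as deposited and 0.16 after each array was centred on its own median. Values as deposited and centred are therefore set side by side. A probe set was called at an adjusted p under 0.05 (limma over all 20523 probe sets), and "on both scales" means called in the same direction before and after centring.

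The arrays labelled Ets1/2 null had less Akt1 and Akt2 RNA than wild type by 4 of the 5 Akt probe sets on both scales, and by the fifth in the deposited values only. A dim Pik3ca probe set was lower and another was higher on both scales. No probe set of Pik3r1, Pdpk1 or Mtor was called on both. As deposited, 10 of the 17 probe sets were called lower and 1 higher, beside 46% and 2.87% of all probe sets. After centring 5 were called lower and 3 higher, beside 14.4% and 21.6% of all. On both scales 5 were lower (14.4% of all probe sets were) and 1 was higher (2.87% of all). The 10 lower calls as deposited are thus a share not far above that of all probe sets, and the median difference of the 17 was -1.11 as deposited and -0.32 centred. Without any 1 array the lower count on both scales was 4 or 5, and the higher count was 0 without replicate 1 of the arrays labelled Ets1/2 null. Within the arrays the fall was not uniform over the 6 genes, as the plots of values and of ranks show.

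**Figure D1:**
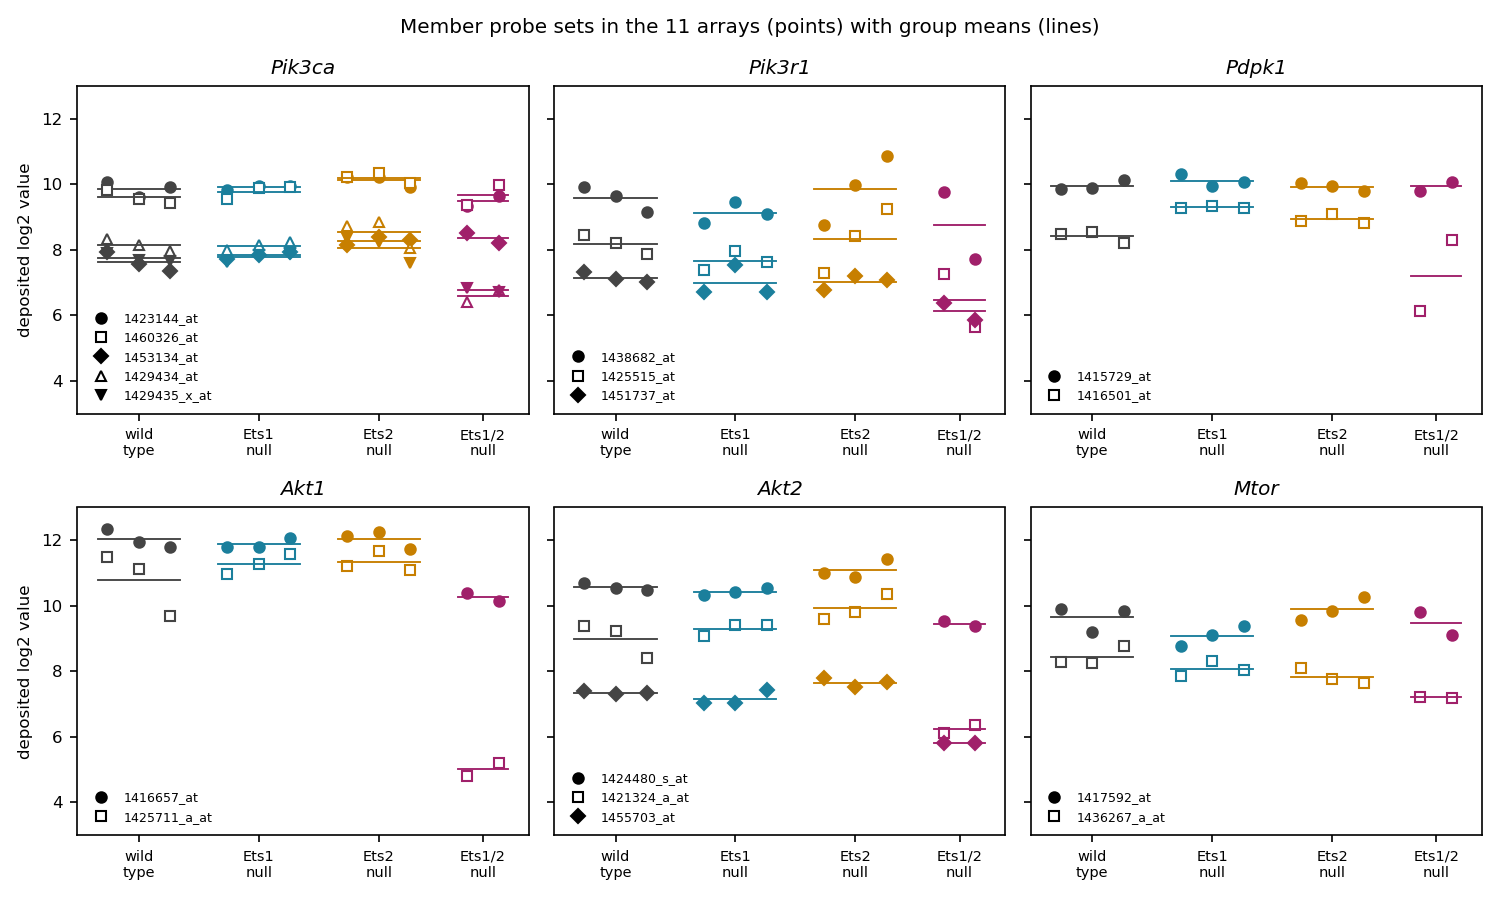
Deposited log2 values (vertical axis) of the 17 probe sets of the 6 genes in the 11 arrays, by group (horizontal axis); points are arrays, marker shapes are probe sets and lines are group means. Akt1 1425711_a_at sits at 4.82 and 5.21 in the arrays labelled Ets1/2 null against 9.69 to 11.66 elsewhere, while Pdpk1 1415729_at stays between 9.80 and 10.32 in all arrays.

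Pik3ca, the catalytic subunit, was read by 5 probe sets that did not move together. The brightest, 1423144_at, gave 10.06, 9.62 and 9.91 in the wild-type arrays, 9.84, 9.94 and 9.94 in those of Ets1 null, 10.23, 10.22 and 9.91 in those of Ets2 null, and 9.34 and 9.64 in the pair labelled Ets1/2 null. Its group means ran from Ets2 null (10.12 ± 0.18, SD, n = 3) over Ets1 null (9.91 ± 0.06, n = 3) and wild type (9.86 ± 0.23, n = 3) to the arrays labelled Ets1/2 null (9.49 ± 0.21, n = 2), and each neighbouring pair overlapped. Its difference between the last and wild type was -0.37 ± 0.18 as deposited (adjusted p = 0.113) and 0.42 ± 0.19 centred (adjusted p = 0.108). The second, 1460326_at, differed by 0.08 ± 0.22 as deposited (adjusted p = 0.789) and by 0.87 ± 0.23 centred (adjusted p = 0.0159).

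The dimmer Pik3ca probe sets parted from each other. Probe set 1453134_at gave 7.94, 7.57 and 7.34 in the wild-type arrays, 7.73, 7.84 and 7.93 in those of Ets1 null, 8.15, 8.39 and 8.28 in those of Ets2 null, and 8.50 and 8.22 in the pair labelled Ets1/2 null. The last lay above every wild-type array, by 0.75 ± 0.19 as deposited (adjusted p = 0.0103) and 1.54 ± 0.20 centred (adjusted p = 0.000758). Without replicate 1 of those arrays the deposited difference was 0.60 with an adjusted p of 0.0735. Probe set 1429434_at gave 8.34, 8.16 and 7.96 in the wild-type arrays, 8.004, 8.13 and 8.23 in those of Ets1 null, 8.73, 8.85 and 8.07 in those of Ets2 null, and 6.41 and 6.77 in the pair labelled Ets1/2 null. Here the last lay below every other array, by -1.56 ± 0.24 from wild type (adjusted p = 0.000687) and -0.77 ± 0.25 centred (adjusted p = 0.0391). Probe set 1429435_x_at, whose suffix marks probes that may bind other transcripts, was lower by -0.96 ± 0.22 as deposited (adjusted p = 0.00623) and differed by -0.17 ± 0.23 centred (adjusted p = 0.602). Pik3ca RNA thus has no single direction in these arrays.

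Pik3r1, the regulatory subunit, had the most variable brightest probe set of the 6 genes. Its brightest probe set, 1438682_at, gave 9.91, 9.65 and 9.15 in the wild-type arrays, 8.83, 9.45 and 9.10 in those of Ets1 null, 8.76, 9.98 and 10.86 in those of Ets2 null, and 9.75 and 7.73 in the pair labelled Ets1/2 null. All groups overlapped their neighbours, with means of 9.87 ± 1.05 (SD, n = 3) in Ets2 null, 9.57 ± 0.39 (n = 3) in wild type, 9.13 ± 0.31 (n = 3) in Ets1 null and 8.74 ± 1.43 (n = 2) in the arrays labelled Ets1/2 null. The last differed from wild type by -0.83 ± 0.67 (adjusted p = 0.332) and by -0.03 ± 0.67 centred (adjusted p = 0.976). Probe set 1425515_at followed the same arrays up and down, at 8.47, 8.20 and 7.86 in the wild-type arrays, 7.39, 7.97 and 7.64 in those of Ets1 null, 7.28, 8.43 and 9.25 in those of Ets2 null, and 7.26 and 5.65 in those labelled Ets1/2 null. It was lower there by -1.72 ± 0.58 as deposited (adjusted p = 0.0353) but not centred (-0.93 ± 0.58, adjusted p = 0.246). Without replicate 2 of those arrays the deposited difference was -0.91 with an adjusted p of 0.287, and without replicate 1 it was -2.53 with an adjusted p of 0.0139. The dimmest, 1451737_at, was lower as deposited (-1.03 ± 0.28, adjusted p = 0.0130), with an adjusted p of 0.105 without replicate 2 of those arrays, and differed by -0.24 ± 0.28 centred (adjusted p = 0.545).

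Pdpk1, the kinase that activates Akt, had the steadiest brightest probe set of the 6 genes in the deposited values. Probe set 1415729_at gave 9.86, 9.87 and 10.13 in the wild-type arrays, 10.32, 9.94 and 10.08 in those of Ets1 null, 10.02, 9.96 and 9.81 in those of Ets2 null, and 9.80 and 10.06 in the pair labelled Ets1/2 null. All 4 groups overlapped, and the difference of the last from wild type was -0.02 ± 0.17 (adjusted p = 0.925). Centring turned this into 0.77 ± 0.17 (adjusted p = 0.00750), since the arrays as a whole were lower. The other probe set, 1416501_at, gave 8.50, 8.55 and 8.20 in the wild-type arrays, 9.28, 9.35 and 9.29 in those of Ets1 null, 8.88, 9.10 and 8.80 in those of Ets2 null, and 6.12 and 8.29 in the pair labelled Ets1/2 null. Both single nulls lay above every wild-type array, by 0.89 ± 0.44 (adjusted p = 0.570) and 0.51 ± 0.44 (adjusted p = 0.539), which did not pass the test. That SE pools the spread of all 4 groups. The SD was 0.19 in wild type, 0.04 in Ets1 null, 0.15 in Ets2 null and 1.54 in the arrays labelled Ets1/2 null. The arrays labelled Ets1/2 null were far apart. Their difference from wild type of -1.21 ± 0.49 (adjusted p = 0.0655) became -2.30 (adjusted p = 0.000150) without replicate 2 and -0.12 (adjusted p = 0.631) without replicate 1.

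Akt1 showed the widest gaps of the 6 genes. Its brighter probe set, 1416657_at, gave 12.35, 11.96 and 11.80 in the wild-type arrays, 11.80, 11.78 and 12.07 in those of Ets1 null, 12.14, 12.26 and 11.73 in those of Ets2 null, and 10.40 and 10.14 in the pair labelled Ets1/2 null. The means of Ets2 null (12.04 ± 0.28, SD, n = 3), wild type (12.04 ± 0.28, n = 3) and Ets1 null (11.88 ± 0.16, n = 3) overlapped, and the arrays labelled Ets1/2 null (10.27 ± 0.18, n = 2) lay below them all. Their difference from wild type was -1.76 ± 0.22 as deposited (adjusted p = 0.000193) and -0.97 ± 0.23 centred (adjusted p = 0.0105). The other probe set, 1425711_a_at, gave 11.50, 11.13 and 9.69 in the wild-type arrays, 10.98, 11.27 and 11.57 in those of Ets1 null, 11.21, 11.66 and 11.10 in those of Ets2 null, and 4.82 and 5.21 in the pair labelled Ets1/2 null. It fell by 5.76 ± 0.46 as deposited (adjusted p = 1.99e-05) and the centred difference was -4.96 ± 0.47 (adjusted p = 0.000162). Within an array it stood at the 61.7th to 90.5th percentile of all probe sets in the 9 other arrays and at the 0.638th and 2.10th in the arrays labelled Ets1/2 null. The suffix of 1425711_a_at marks a probe set for several transcripts of the same gene, and which transcripts it reads is not given in the sources used here.

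Akt2 was lower by all 3 probe sets as deposited. The brightest, 1424480_s_at, gave 10.69, 10.53 and 10.47 in the wild-type arrays, 10.32, 10.41 and 10.53 in those of Ets1 null, 11.01, 10.89 and 11.42 in those of Ets2 null, and 9.52 and 9.38 in the pair labelled Ets1/2 null. Its order was Ets2 null (11.11 ± 0.28, SD, n = 3), wild type (10.56 ± 0.11, n = 3), Ets1 null (10.42 ± 0.11, n = 3) and the arrays labelled Ets1/2 null (9.45 ± 0.10, n = 2), and of neighbouring groups only wild type and Ets1 null overlapped. The difference between the last and wild type was -1.11 ± 0.18 (adjusted p = 0.000807), and -0.32 ± 0.18 centred (adjusted p = 0.195). The suffix of this probe set marks probes that can be shared with other transcripts. Probe set 1421324_a_at gave 9.38, 9.22 and 8.40 in the wild-type arrays, 9.08, 9.40 and 9.41 in those of Ets1 null, 9.61, 9.82 and 10.37 in those of Ets2 null, and 6.10 and 6.36 in the pair labelled Ets1/2 null. It fell by 2.77 ± 0.32 (adjusted p = 0.000128), and the centred difference was -1.97 ± 0.32 (adjusted p = 0.00205). The dim 1455703_at gave 7.39, 7.31 and 7.35 in the wild-type arrays, 7.03, 7.02 and 7.44 for Ets1 null, 7.78, 7.51 and 7.67 for Ets2 null, and 5.81 in both arrays labelled Ets1/2 null. It fell by 1.54 ± 0.16 (adjusted p = 8.03e-05), and the centred difference was -0.74 ± 0.16 (adjusted p = 0.00718). All 5 probe sets of Akt1 and Akt2 lay below wild type as deposited in each of the 11 fits that left out 1 array. With all 11 arrays, 46% of all probe sets were called lower on that scale. Centred values of single probe sets in these fits are not given here.

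**Figure D2:**
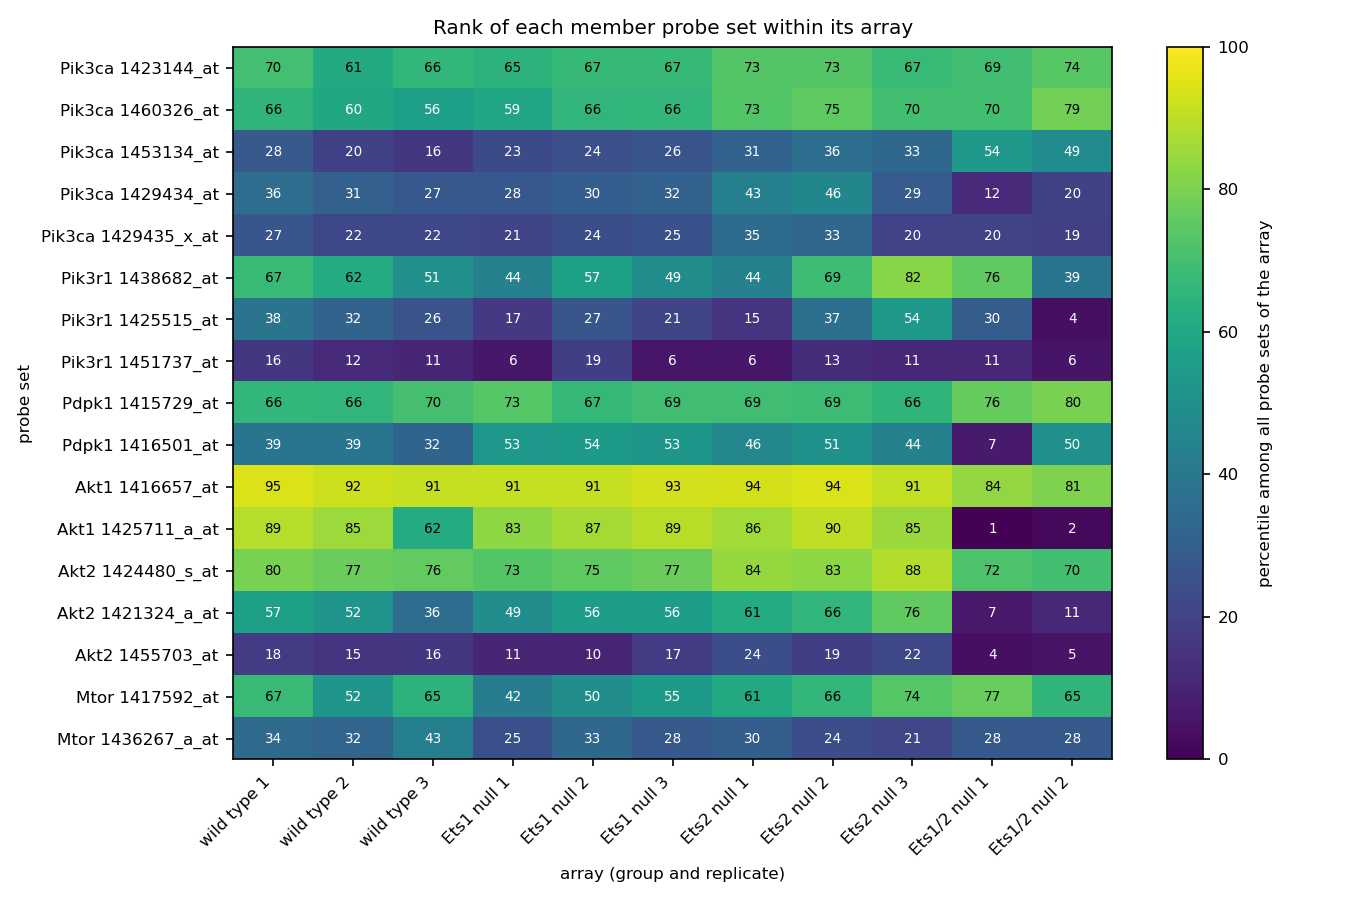
Percentile of each of the 17 probe sets among all probe sets of the same array (colour and number), by probe set (rows) and array (columns). Akt1 1425711_a_at stands at the 0.638th and 2.10th percentile and Akt2 1421324_a_at at the 6.97th and 11.5th in the arrays labelled Ets1/2 null, while Pdpk1 1415729_at stands at the 65.5th to 79.8th percentile in all 11 arrays.

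Mtor, the kinase of the mTOR complexes, was split between its 2 probe sets. The brighter, 1417592_at, gave 9.91, 9.21 and 9.84 in the wild-type arrays, 8.77, 9.12 and 9.37 in those of Ets1 null, 9.57, 9.84 and 10.25 in those of Ets2 null, and 9.82 and 9.12 in the pair labelled Ets1/2 null. Neighbours overlapped in the order Ets2 null (9.89 ± 0.35, SD, n = 3), wild type (9.65 ± 0.39, n = 3), arrays labelled Ets1/2 null (9.47 ± 0.50, n = 2) and Ets1 null (9.09 ± 0.30, n = 3). The arrays labelled Ets1/2 null differed from wild type by -0.18 ± 0.32 (adjusted p = 0.659) and by 0.61 ± 0.32 centred (adjusted p = 0.162). The other, 1436267_a_at, gave 8.27, 8.25 and 8.76 in the wild-type arrays, 7.84, 8.32 and 8.04 in those of Ets1 null, 8.09, 7.77 and 7.65 in those of Ets2 null, and 7.21 and 7.19 in the pair labelled Ets1/2 null. The last lay below every other array, by -1.23 ± 0.22 from wild type (adjusted p = 0.00143), while the centred difference was -0.43 ± 0.21 (adjusted p = 0.139).

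Neither single null differed from wild type past the threshold in any of the 17 probe sets on either scale. In Ets1 null against wild type 0 were called, beside 0.00487% of all probe sets on each scale (limma). None had an unadjusted p under 0.05, the lowest adjusted p was 0.570, and the differences ran from -0.57 (Mtor 1417592_at) to 0.89 (Pdpk1 1416501_at) around a median of -0.03. In Ets2 null against wild type 0 were called, beside 0.58% of all probe sets as deposited and 0.633% centred (limma). Here 5 had an unadjusted p under 0.05 (6 centred), the lowest adjusted p was 0.0944, and the median difference was 0.31. Of all 20523 probe sets, 2185 were higher and 2063 lower at that unadjusted p (2367 and 1867 centred). The median difference of all probe sets was -0.01 as deposited. Of the 17, 14 were above zero. For the separations that follow, the share over all probe sets is not given here. The uncalled probe sets whose Ets2 null arrays all lay above wild type included all 3 of Akt2, with 0.93 ± 0.28 for 1421324_a_at (adjusted p = 0.125), 0.54 ± 0.16 for 1424480_s_at (adjusted p = 0.114) and 0.31 ± 0.14 for 1455703_at (adjusted p = 0.265). Pik3ca 1453134_at (0.66 ± 0.17, adjusted p = 0.0944) and 1460326_at (0.60 ± 0.20, adjusted p = 0.146) lay above wild type too, and Mtor 1436267_a_at lay below it (-0.59 ± 0.19, adjusted p = 0.144). With array weights, which count wild-type replicate 3 and Ets2 null replicate 3 least, 4 Pik3ca probe sets were called higher in Ets2 null, by 0.50 to 0.65.

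**Figure D3:**
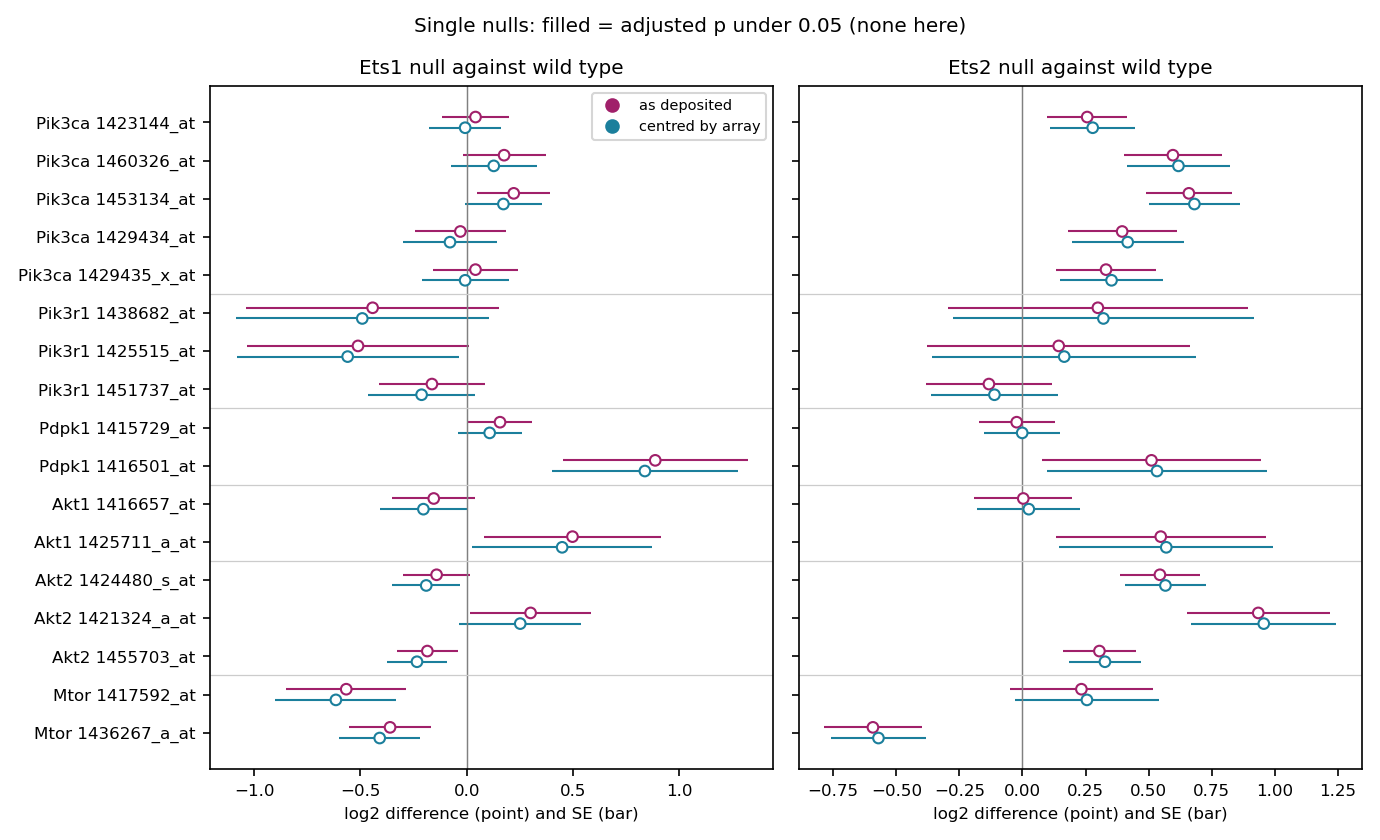
Log2 difference (point) and limma SE (bar) of the 17 probe sets in Ets1 null (left) and Ets2 null (right) against wild type, as deposited and centred. All points are open because no adjusted p was under 0.05, and the Akt2 probe sets lie between 0.31 and 0.93 in Ets2 null as deposited.

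The arrays labelled Ets1/2 null were also set against each single null, and these comparisons share those 2 arrays with the one against wild type. Against Ets1 null, 10 probe sets were called lower and 1 higher as deposited (46% and 1.76% of all), and 4 lower and 1 higher on both scales (13.7% and 1.76% of all). The 4 were both Akt1 probe sets (-1.61 ± 0.22 for 1416657_at and -6.26 ± 0.46 for 1425711_a_at) and Akt2 1421324_a_at and 1455703_at (-3.07 ± 0.32 and -1.35 ± 0.16). Centred, these were -0.77, -5.41, -2.22 and -0.51. The count of 4 was 2 without Ets1 null replicate 3 or without replicate 1 of the arrays labelled Ets1/2 null. The probe set that was higher was Pik3ca 1453134_at (0.53 ± 0.19, adjusted p = 0.0472; centred 1.37), and with 1 array left out it kept that call only without wild-type replicate 1 or 3. Against Ets2 null, 12 were called lower and 0 higher as deposited (45.7% and 3.12% of all), and 6 lower and 0 higher on both scales (14.9% and 3.12% of all). The 6 were all 5 Akt probe sets and Pik3ca 1429434_at (-1.96 ± 0.24, centred -1.18). Akt2 1424480_s_at, which was not called in centred values against wild type, differed from Ets2 null by -1.66 ± 0.18 as deposited and -0.88 ± 0.18 centred (adjusted p = 0.00539). All 3 Ets2 null arrays were male and both arrays labelled Ets1/2 null female. With a term for sex the deposited count was 6, the same 5 Akt probe sets and Pik3ca 1429434_at. That term rests on the 1 male wild-type array.

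The difference between the arrays labelled Ets1/2 null and Ets1 null was compared with that between Ets2 null and wild type (the interaction). These differences are not matched. The former is between Ets2fl/fl cells by female arrays, and the latter between Ets2fl/fl cells by male arrays and Ets2+/+ cells of both sexes. The part of the floxed alleles was not tested. As deposited it was called below zero for 8 probe sets and above zero for 0 (34% and 1.44% of all), and on both scales for 4 and 0 (9.36% and 1.44% of all). The 4 were Akt1 1425711_a_at (-6.80 ± 0.62 as deposited and -5.98 ± 0.64 centred), Akt2 1421324_a_at (-4.003 ± 0.42 and -3.18 ± 0.43), Akt2 1455703_at (-1.66 ± 0.22 and -0.83 ± 0.22) and Pik3ca 1429434_at (-1.93 ± 0.32 and -1.10 ± 0.33). For Akt1 1416657_at the interaction was -1.61 ± 0.29 as deposited (adjusted p = 0.00283) and -0.79 ± 0.31 centred (adjusted p = 0.0999). The count of 4 was 2 without wild-type replicate 2, without Ets2 null replicate 1 or without replicate 1 of the arrays labelled Ets1/2 null. Both Akt isoforms thus had interactions called on both scales, by 1 of 2 probe sets for Akt1 and by 2 of 3 for Akt2.

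**Figure D4:**
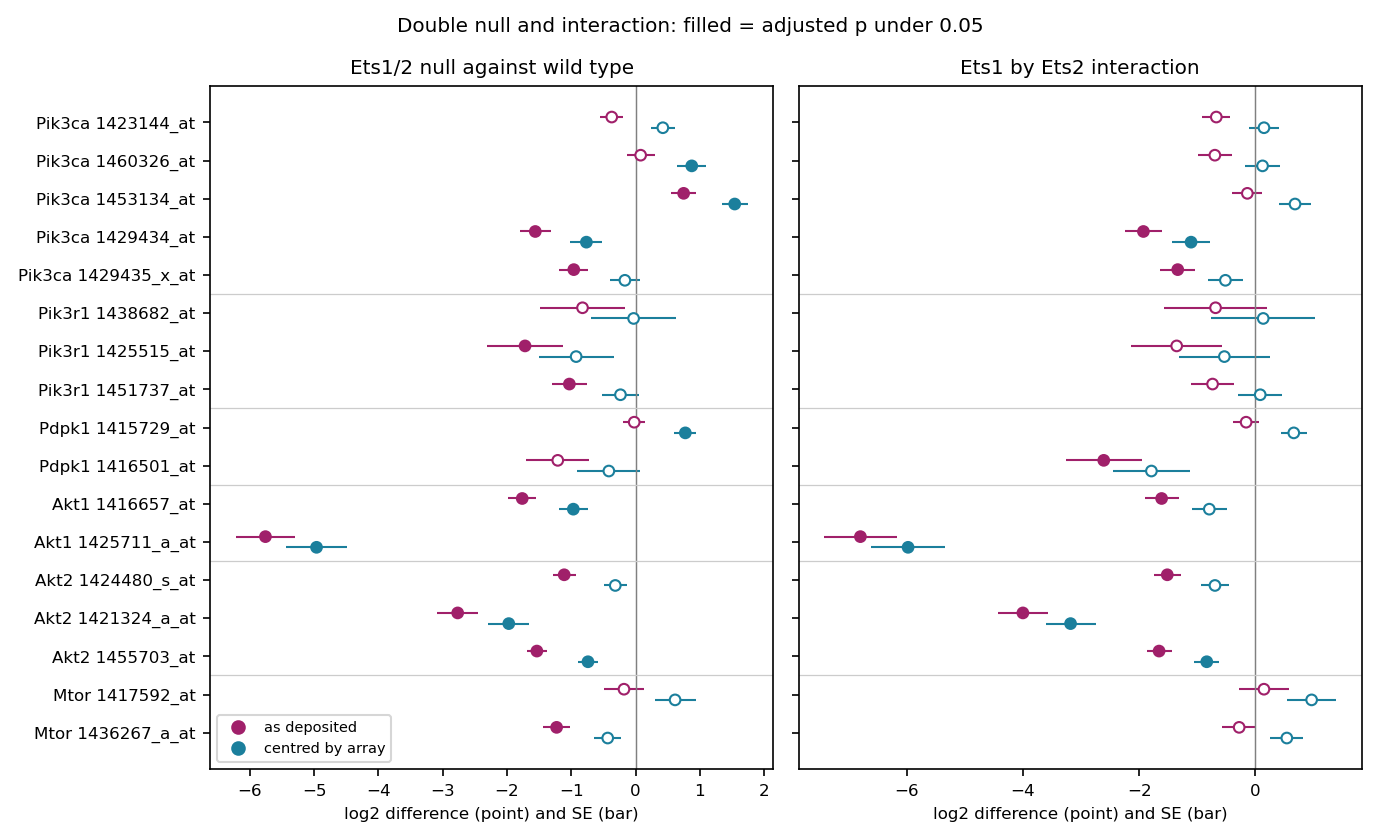
Log2 difference (point) and limma SE (bar) of the 17 probe sets in the arrays labelled Ets1/2 null against wild type (left) and in the Ets1 by Ets2 interaction (right), as deposited and centred; filled points have an adjusted p under 0.05. Akt1 1425711_a_at lies farthest left in both panels, at -5.76 and -6.80 as deposited, and Pdpk1 1415729_at moves from -0.02 to 0.77 on centring.

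Probe sets of the same gene were then tested against each other: the value of each further probe set minus that of its gene's brightest was fitted over 7809 such pairs, a test chosen after these values were seen. An offset of a whole array cancels in such a difference. Between the arrays labelled Ets1/2 null and wild type, 10 of the 11 further probe sets of the 6 genes were called, beside 61.7% of all pairs, so disagreement between probe sets was common in this comparison. Akt1 1425711_a_at differed by -3.99 ± 0.36 from 1416657_at (adjusted p = 1.09e-05). Akt2 1421324_a_at differed by -1.66 ± 0.24 from 1424480_s_at (adjusted p = 0.000215), and Pik3ca 1453134_at and 1429434_at by 1.12 ± 0.21 and -1.19 ± 0.17 from 1423144_at (adjusted p = 0.00127 and 0.000185). Pik3r1 1451737_at was the pair not called (-0.20 ± 0.52, adjusted p = 0.747). In Ets1 null and Ets2 null against wild type 0 of the 11 were called, beside 0.0256% and 3.1% of all pairs, with lowest adjusted p of 0.658 and 0.144. In the interaction 6 of the 11 were called, beside 48% of all pairs.

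The wider pathway was read from 11 lists with 173 genes, of which 148 were on the table, each gene by its brightest probe set. The 148 include the 6 genes described above. In the arrays labelled Ets1/2 null against wild type, 19 of the 148 fell and 7 rose on both scales, beside 11% and 2.41% of all 11015 genes. Their median difference was -0.52 as deposited and 0.28 centred, against -0.61 and 0.18 for all genes. The 19 remained between 15 and 21 when 1 array was left out, while the 7 rises came to 2 to 4 without wild-type replicate 1, 2 or 3, Ets1 null replicate 2, Ets2 null replicate 1 or replicate 2 of the arrays labelled Ets1/2 null. Against Ets1 null 16 fell and 4 rose (10.3% and 1.81% of all genes), and against Ets2 null 23 fell and 8 rose (12.3% and 3.06%). The 16 became 10 without replicate 1 of the arrays labelled Ets1/2 null, the 4 ranged from 1 to 8, the 23 became 15 without Ets2 null replicate 1, and the 8 became 5 without replicate 2 of the arrays labelled Ets1/2 null. In Ets2 null against wild type 1 fell and 0 rose (0.236% and 0.254% of all genes), and in Ets1 null against wild type 0 of the 148 were called by limma. The 1 was Tbc1d1, an Akt substrate of glucose transport, at 8.67, 9.03 and 8.67 in wild-type arrays and 7.82, 7.60 and 7.55 in those of Ets2 null (-1.13 ± 0.15, adjusted p = 0.0274). It was called in 6 of the 11 fits without 1 array. Such counts of fits for single genes, here and below, are of deposited values. It was not called with a term for sex (-1.02, adjusted p = 0.247), which rests on the 1 male wild-type array.

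The mTOR complexes held 4 falls and no rise among 10 genes on the table in the arrays labelled Ets1/2 null against wild type. On both scales 11% of all genes fell and 2.41% rose, the shares to set beside each list count below. The lists are small, and none was tested against these shares. Akt1s1, which encodes the Akt-regulated mTORC1 inhibitor PRAS40, gave 11.44, 11.20 and 11.07 in the wild-type arrays, 10.99 to 11.14 for Ets1 null, 11.51 to 11.63 for Ets2 null, and 8.44 and 7.75 in those labelled Ets1/2 null. It fell by 3.15 ± 0.20 as deposited (adjusted p = 7.34e-06), and the centred difference was -2.35. Rptor, the scaffold of mTORC1, fell by 1.83 ± 0.20 (adjusted p = 9.36e-05; centred -1.03), Mlst8, a subunit of both complexes, fell by 1.70 ± 0.21 (adjusted p = 0.000179; centred -0.90), and Telo2, which helps assemble them, fell by 1.96 ± 0.13 (adjusted p = 7.79e-06; centred -1.16). Mtor itself was not among them. In the 11 fits without 1 array the deposited difference ran from -3.49 to -2.80 for Akt1s1 and from -2.06 to -1.60 for Rptor. It ran from -1.85 to -1.49 for Mlst8 and from -2.01 to -1.92 for Telo2. As deposited, 44% of all genes were called lower, and centred values of these genes in such fits are not given here.

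Among 16 mTORC1 substrates and translation genes 5 fell and 1 rose, beside 11% and 2.41% of all genes. Rps6kb2, an S6 kinase, gave 8.34, 8.47 and 8.18 in wild type and 6.005 and 6.20 in the arrays labelled Ets1/2 null and fell by 2.23 ± 0.17 (adjusted p = 1.50e-05; centred -1.43). The RNA polymerase III repressor Maf1 fell by 1.89 ± 0.24 (centred -1.10), the cap-binding factor Eif4e fell by 1.70 ± 0.24 (centred -0.90), and the autophagy factor Atg13 fell by 1.42 ± 0.16 (centred -0.62). The lysosomal transcription factor Tfeb also fell by 1.32 ± 0.15 (centred -0.53), and the rise was of the ribosomal protein Rps6 (0.80 ± 0.19, adjusted p = 0.00684; centred 1.60); both are named after their values were seen. Among 29 genes of the TSC, Rheb, Rag and Sestrin control of mTORC1 1 fell and 1 rose: the stress-induced Sesn2 fell by 1.79 ± 0.31 (adjusted p = 0.00126; centred -0.998), and the arginine sensor Castor1 rose by 0.68 ± 0.25 (adjusted p = 0.0467; centred 1.48), a call kept in 4 of the 11 fits without 1 array.

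Upstream of Akt, 0 of 5 PI3 kinase catalytic subunits and 1 of 7 regulatory subunits and binding proteins were called on both scales. Of all genes 11% fell and 2.41% rose on both scales. Pik3r2, the p85-beta regulatory subunit, gave 10.28, 10.23 and 9.67 in wild type and 8.07 and 8.10 in the arrays labelled Ets1/2 null and fell by 1.98 ± 0.26 (adjusted p = 0.000247; centred -1.18). Of 11 receptor adaptors 2 fell. Cbl, a ubiquitin ligase of receptors, fell by 1.52 ± 0.15 by its brightest probe set (centred -0.73) and differed by -0.31 (adjusted p = 0.245) by the mean of its probe sets. Grb10, an adaptor that restrains insulin receptor signalling, gave 10.43, 12.75 and 9.82 in the wild-type arrays, 5.02, 5.01 and 6.09 in those of Ets1 null, 11.78, 9.13 and 11.86 in those of Ets2 null, and 7.66 and 5.28 in the pair labelled Ets1/2 null. It was low in both groups labelled as lacking Ets1. The difference between Ets1 null and wild type was -5.63 ± 0.98 (adjusted p = 0.197), and Grb10 fell by 4.54 ± 1.10 in the arrays labelled Ets1/2 null (adjusted p = 0.00783, and 0.0761 without replicate 2; centred -3.74). Of 13 phosphoinositide and Akt phosphatases 1 fell, no larger a share than the 11% of all genes. This was the lipid phosphatase Inppl1 (SHIP2), which fell by 1.69 ± 0.17 (adjusted p = 6.27e-05, centred -0.89).

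Beside Akt, 2 of 7 genes in the list of Akt and related kinases fell, Akt1 and the integrin-linked pseudokinase Ilk, which gave 12.63, 12.80 and 11.87 in wild type and 10.43 and 9.94 in the arrays labelled Ets1/2 null (-2.25 ± 0.27, adjusted p = 0.000176; centred -1.45). Of 10 Akt regulators the Hsp90 co-chaperone Cdc37 fell by 1.76 ± 0.315 (centred -0.96) and the ubiquitin ligase Traf6 rose by 0.51 ± 0.18 (adjusted p = 0.0396; centred 1.30), a call kept in 3 of the 11 fits without 1 array. By the mean of its probe sets Traf6 turned to -0.25 (adjusted p = 0.292), and without replicate 2 of the arrays labelled Ets1/2 null it was 0.21 (adjusted p = 0.325). Of 24 Akt substrates 2 fell and 3 rose. The shares of all genes, 11% falling and 2.41% rising, stand beside this and the other lists of this paragraph. Bad, a pro-apoptotic protein that Akt inactivates, gave 10.82, 10.87 and 11.001 in wild type and 9.11 and 8.93 in the arrays labelled Ets1/2 null (-1.88 ± 0.15, adjusted p = 1.93e-05; centred -1.09), and the 14-3-3 protein Ywhaz fell by 1.73 ± 0.23 (centred -0.93). Foxo1, a transcription factor that Akt keeps out of the nucleus, gave 7.69, 8.75 and 8.34 in wild type and 9.75 and 9.11 in the arrays labelled Ets1/2 null (1.17 ± 0.40, adjusted p = 0.0370; centred 1.96), called in 7 of the 11 fits without 1 array. The actin-binding Palld rose by 1.24 ± 0.45 (adjusted p = 0.0466; centred 2.03), called in 5 of the 11, and the glycolytic regulator Pfkfb2, named after its value was seen, by 0.85 ± 0.31 (adjusted p = 0.0467; centred 1.65). By the mean of their probe sets Foxo1 differed by 0.63 (adjusted p = 0.166) and Palld by 0.47 (adjusted p = 0.400). Of 23 genes known to be bound by FoxO factors 1 rose and 0 fell (limma): Ccng2, a cyclin, at 10.63, 10.40 and 10.87 in wild type and 11.68 and 12.13 in the arrays labelled Ets1/2 null (1.27 ± 0.29, adjusted p = 0.00610, and 0.0539 without replicate 2; centred 2.06). By the mean of its probe sets Ccng2 differed by 0.08 (adjusted p = 0.837).

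**Figure D5:**
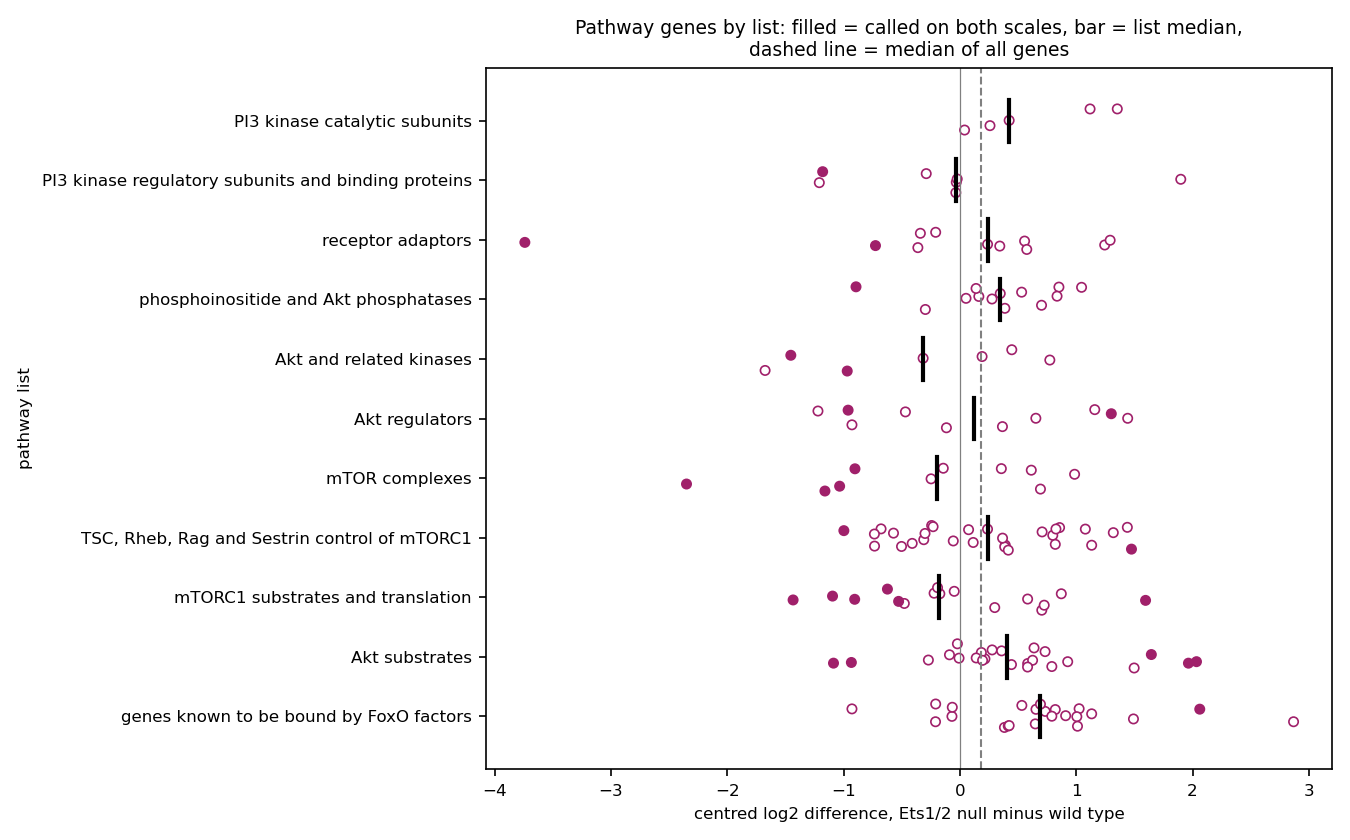
Centred log2 difference between the arrays labelled Ets1/2 null and wild type (horizontal axis) for each pathway gene on the table by its brightest probe set, in the 11 lists (rows); filled points were called on both scales, bars are list medians and the dashed line is the median of all genes (0.18). The list medians run from -0.32 for Akt and related kinases to 0.69 for genes known to be bound by FoxO factors.

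Finally, the genes whose brightest probe set ran closest to each of the 6 over the 11 arrays were found by the root mean square difference of centred values, each gene set to its own mean. Over 11015 genes the nearest were Slc35e1 (0.126) and Usf2 (0.130) to Akt1, Slc35e3 (0.113) and Nisch (0.144) to Akt2, and Pttg1ip (0.111) and Lin52 (0.114) to Pik3ca. They were Zfp24 (0.0864) and Cert1 (0.0885) for Pdpk1, Nrbf2 (0.149) and Mga (0.210) for Mtor, and Tbx18 (0.363) and Cd1d1 (0.364) for Pik3r1. The member genes' own SD over the arrays was 0.24 for Pik3ca, 0.33 for Pdpk1, 0.38 for Akt2, 0.43 for Akt1, 0.55 for Mtor and 0.76 for Pik3r1, so Pik3r1 varied most and its neighbours were the least close.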

How the data were processed

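RNA of mouse aortic endothelial cells was measured on Affymetrix arrays from biotin-labelled cRNA, per the labels' protocols. The deposited log2 values are the authors' normalised probe set values, with RMA named (without a version) in the submitters' processing notes. Whether all arrays were normalised together is not given in the sources used here. Of 12 columns 11 were used. Of 20523 probe sets 18824 carried 1 gene symbol, 549 several and 1150 none, and 18788 were matched to RefSeq by Entrez identifier. Levels of different probe sets were not compared, since each has its own brightness.

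Groups were fitted with limma 3.58.1 in R 4.3.3 (lmFit and eBayes, 1 mean per group over 11 arrays, 7 residual degrees of freedom, two-sided), with Benjamini-Hochberg adjustment over all probe sets, as deposited and after subtracting each array's median. Tables and figures used pandas 2.3.3 and matplotlib 3.10.9. The fit was tested on simulated data. Each gene was represented by its brightest probe set over the arrays. Named were all probe sets of the 6 genes, Ets1 and Ets2, up to 4 genes per list and comparison called on both scales with groups that did not overlap, by size, and the 2 nearest genes of each. Members and lists were chosen with earlier results of these data known, and the test between probe sets was added after the data were seen. Alternatives were quantile normalisation, centring, the mean of a gene's probe sets, a filter on dim probe sets (highest value at least 8), array weights, a term for sex, the replicate number as a block, the compared groups alone and leaving out each array.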

Additional observations from a re-analysis of the deposited data

Results flagged for a closer look

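For 4 probe sets the difference between the arrays labelled Ets1/2 null and Ets1 null departed on both scales from that between Ets2 null and wild type, by the interaction term in limma. The interaction was -6.80 for Akt1 1425711_a_at (adjusted p = 9.26e-05) and -4.003 for Akt2 1421324_a_at (adjusted p = 0.000189) in the deposited log2 values. It was -1.66 for Akt2 1455703_at (adjusted p = 0.000530) and -1.93 for Pik3ca 1429434_at (adjusted p = 0.00194). All rest on the 2 arrays labelled Ets1/2 null, whose medians were lower and whose 4 Ets1 probe sets disagreed on the level of Ets1.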

How the results depend on the processing

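Of the 17 probe sets, the counts called as deposited were 0 in each single null against wild type, 11, 11 and 12 for the arrays labelled Ets1/2 null against wild type, Ets1 null and Ets2 null, and 8 in the interaction. These sums of lower and higher calls stayed within 1.5 times except as follows. The exceptions were array weights for Ets2 null against wild type (4), quantile normalisation against Ets1 null (7) and a term for sex against Ets2 null (6). For the interaction they were centring (4) and quantile normalisation (5). The sums hide a change of direction on centring. Lower and higher calls went from 10 and 1 to 5 and 3 against wild type. They went from 10 and 1 to 4 and 4 against Ets1 null, and from 12 and 0 to 6 and 2 against Ets2 null. With the replicate number as a block the counts were 0, 0, 10, 10, 10 and 8. Arrays of the same number did not deviate together (r from -0.306 to 0.0998, and 0 of 11 arrays correlated best with their own number). With 2 or 3 arrays per group such correlations cannot show whether the same number marks a shared origin. Against Ets2 null, Pik3ca 1423144_at turned to 0.14 centred and 0.013 with quantile normalisation, and Mtor 1436267_a_at to 0.14 and 0.18. Pik3ca 1460326_at turned to 0.75 centred against Ets1 null. Pdpk1 1415729_at turned to 0.77 centred and 0.64 with quantile normalisation against wild type, to 0.67 and 0.51 against Ets1 null, and, by the mean of its probe sets, to -0.86 against Ets2 null. By the mean of probe sets Traf6 turned to -0.25 against wild type and -0.21 against Ets1 null, and Trib2 to -0.32 against Ets2 null. Centring adds a constant to each array; the cause of the other changes was not tested. Leaving out an array labelled Ets1/2 null leaves 1, which is assumed to vary like the other groups.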
